A study of Homo sapiens with 66 samples.

Results

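The MED14-tagged line was compared with wild-type cells without any degrader, to ask how the engineered line differed before MED14 was removed. The parental line was KBM7, a near-haploid human chronic myeloid leukemia cell line. The comparison rested on 6 of the 66 libraries in the series, chosen by their labels: 3 of the MED14-dTAG genotype (MED14_DMSO, letters A, B and C) and 3 of wild-type cells (WT_DMSO, A, B and C). Both groups had received the solvent DMSO for 6 h. Further groups were MED14_dTAG_7 and WT_dTAG_7 (500 nM dTAG7 for 6 h, 3 libraries each) and the DMSO groups of 8 other tagged KBM7 lines (MED1, MED6, MED10, MED12, MED26, MED28, MED31 and CDK9, 24 libraries). MED10_dTAG_7 (500 nM dTAG7 for 6 h, 3 libraries) against MED10_DMSO served as a comparison that shares no library with the baseline. The dTAG_7 groups of the MED6, MED12, MED26, MED28 and MED31 lines, at the same dose and time, were used likewise. All lines share the KBM7 background, and the sources used here do not say whether a tagged line is 1 clone or where the tag sits. RNA was measured as 3' ends of polyadenylated transcripts (QuantSeq). The 3 libraries of a group were wells of one plate format filled 3 times per condition. The spread that the p-values see is therefore that between wells, not between separately derived lines.

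Mediator is a large multi-subunit complex that joins transcription factors bound at enhancers and promoters to RNA polymerase II. MED14 is the scaffold subunit that links its head, middle and tail modules, and loss of MED14 takes the complex apart. In the dTAG system the protein of interest carries a tag bound by dTAG7, a bifunctional molecule that brings the cereblon ubiquitin ligase to the tagged protein and sends it to the proteasome. Cells of a tagged line live on the fusion protein at all times, so a difference from wild type before treatment can be present in every later measurement of that line.

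Libraries of the comparison held 2502436 to 3884721 counts on genes. Values were placed on the scale of the added spike-in RNA (ERCC and SIRV), on which a fall in total RNA per well stays visible, and on TMM, which sets the typical gene to no change. Levels are given as CPM on the spike-in scale, the counts of a gene relative to a common library size. The log2 ratio of endogenous to spike-in counts was 6.75, 6.85 and 6.83 in MED14_DMSO and 6.98, 7.12 and 6.91 in WT_DMSO. The groups did not overlap, and the tagged line stood at 87.4% of wild type (6.81 ± 0.05 against 7.0 ± 0.11, SD, n = 3 each). The difference of −0.19 had an exact permutation p = 0.1, two-sided, the smallest value 3 against 3 can give. Against the 24 DMSO libraries of the other tagged lines the difference was −0.21 (permutation p = 0.00513, with wells as the unit). Wells of a line are not separate lines, so this p does not measure the spread between lines. MED12_DMSO B, at 6.71, lay under all 3 MED14_DMSO libraries. Fewer cells per well and less RNA per cell cannot be told apart. The median gene accordingly stood at −0.19 (log2) on the spike-in scale and at 0.02 under TMM, so each change below is given on both where the scales differ.

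MED14 mRNA was lower in the tagged line before any degrader was added. Its level was 36.9, 40.2 and 40.7 CPM in MED14_DMSO and 97.9, 108 and 86.4 CPM in WT_DMSO. All tagged libraries lay under all wild-type libraries (39.3 ± 2.04 against 97.4 ± 10.8 CPM, SD, n = 3 each). The log2 fold change was −1.30 ± 0.19 (SE) on the spike-in scale and −1.10 under TMM. The comparison was chosen with this lower level known, so the value describes the line. Against the mean of the 8 other tagged lines MED14 stood at −1.33. After dTAG7 the MED14 line held 27.1 ± 1.78 CPM against 102 CPM in WT_dTAG_7. The change within the line was −0.52 on the spike-in scale, where the median over all genes was −0.685. Under TMM it was 0.17 and was not called. MED14 lies on chromosome X at 40648306 to 40735858 (hg38, minus strand). None of the 6 other tested genes starting within 1 Mb passed the test: ATP6AP2, BCOR, CASK, CXorf38, DDX3X and USP9X ranged from −0.32 to 0.03 on the spike-in scale.

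The rest of the Mediator complex differed little. Of 33 subunit genes 4 fell on the spike-in scale, where 8.98% of all 12515 genes tested fell and 1.42% rose (edgeR quasi-likelihood test, Benjamini-Hochberg adjusted p under 0.05). These were MED14, MED23 (−0.67), MED22 (−0.66) and MED12 (−0.53, of the kinase module). Under TMM MED14 was the one subunit to fall, and CDK19, a kinase of the Mediator kinase module, rose (0.41, adjusted p = 0.0267). Under TMM, 3.18% of 12973 genes fell and 2.65% rose. MED22 was no longer called without MED14_DMSO B or C or WT_DMSO B or C, with adjusted p up to 0.331. No gene passed the test on the spike-in scale among 11 RNA polymerase II subunits, 17 genes of P-TEFb, its inhibitors and the super elongation complex, and 10 genes of the degrader machinery. Under TMM AFF4, a super elongation complex scaffold, rose by 0.32 (log2), and none of the polymerase or degrader genes was called. POLR2A, the largest polymerase subunit, stood at 0.05 (adjusted p = 0.854). HEXIM1, the P-TEFb inhibitor, stood at −0.11 (adjusted p = 0.728).

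Some genes that wild-type cells expressed at moderate levels had few counts in the MED14-tagged line. The 10 largest falls among genes called on both scales were RTL8C, TLR2, COCH, C11orf74, LIN7A, ZNF69, ZNF660, IAH1, SPAG16 and LGALS8, from −5.74 to −4.11 (log2). TLR2, the receptor for bacterial lipoproteins on myeloid cells, gave 0.377, 0.312 and 0 CPM in MED14_DMSO and 12.1, 15.2 and 12.1 CPM in WT_DMSO. Summed over the libraries this was 2 counts against 85, a ratio of 54.3 with an exact 95% counting interval of 14.6 to 456. RTL8C, a gene of retrotransposon origin whose near-identical copies may share its reads, had 0, 0.623 and 0 CPM against 17.6, 12.3 and 15.3 CPM, or 2 counts against 101. ZNF69, a zinc finger gene, had 3 counts against 83, a ratio of 35.3 (11.7 to 175).

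C11orf74, on the short arm of chromosome 11 at 36594493 to 36659290, was the best expressed of these genes in wild-type cells. Its level was 0.753, 2.18 and 1.17 CPM in the tagged line and 38.1, 59 and 47.8 CPM in wild type (−5.02 ± 0.32, adjusted p = 2.7e-19). COCH, which encodes the secreted protein cochlin, had 0.377, 0.623 and 0.391 CPM against 17.6, 20.4 and 15.3 CPM. LIN7A, a polarity scaffold gene, had 0.377, 0.312 and 1.17 CPM against 24.3, 12.8 and 23.3 CPM. Groups without overlap were a condition of being named, so the separation of these genes is no result. The same genes stood between −5.67 and −4.52 against the 8 other tagged lines, a comparison that shares the MED14_DMSO libraries. In separate wells, MED14_dTAG_7 against WT_dTAG_7, they stood between −6.23 and −3.32 on the spike-in scale and between −5.33 and −2.36 under TMM.

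Other genes were low in wild type and higher in the tagged line. The 10 largest rises were STAB1, TM4SF1, CALN1, ETS1, NEFL, IFITM3, HBD, CXCL11, SCN9A and IL2RA, from 4.45 to 2.86 (log2). IL2RA, the alpha chain of the interleukin 2 receptor, was 48.6, 50.5 and 50.8 CPM in MED14_DMSO and 6.28, 7 and 7.23 CPM in WT_DMSO (2.86 ± 0.23, adjusted p = 4.91e-15). ETS1, a transcription factor of lymphoid cells, was 19.6, 21.5 and 26.2 CPM against 1.26, 1.75 and 0.803 CPM. STAB1, a scavenger receptor, was 13.6, 15.3 and 14.1 CPM against 0.837, 1.17 and 0 CPM. IL2RA was detected in every wild-type library, whereas STAB1 was listed at 0 in WT_DMSO C.

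NEFL, the light neurofilament chain, was 32.8, 44.6 and 47.3 CPM against 4.18, 2.33 and 3.21 CPM. SCN9A, a voltage-gated sodium channel gene, was 36.2, 43.3 and 44.6 CPM against 3.77, 6.42 and 6.03 CPM. IFITM3, an interferon-induced membrane protein with close paralogs nearby, was 19.6, 23.7 and 20.7 CPM against 3.35, 1.17 and 0.803 CPM. TM4SF1, a tetraspanin-like surface protein, had 3 counts in wild type against 89, a ratio of 23.2 (7.69 to 115). Against the other tagged lines the 10 genes stood between 1.86 (TM4SF1) and 7.26 (NEFL). In the dTAG7 wells 9 of them stood between 1.11 and 4.71 on the spike-in scale, while TM4SF1 stood at 0.61.

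**Figure D1:**
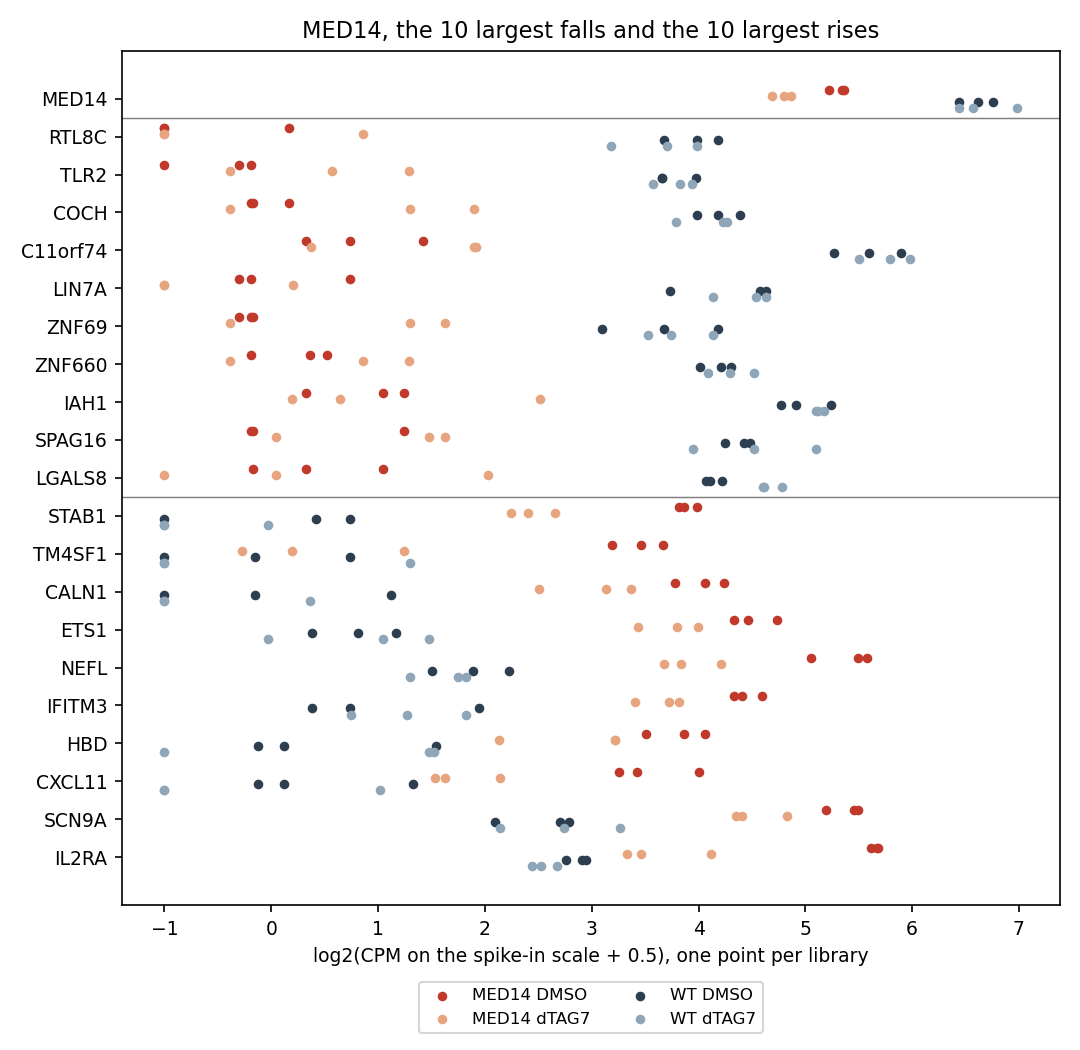
Levels of MED14, the 10 largest falls and the 10 largest rises, as log2(CPM on the spike-in scale + 0.5) on the horizontal axis, with 1 point per library and 4 colours for MED14 and wild-type cells with DMSO or dTAG7. For MED14 and the falls the wild-type points lie to the right of the tagged line's points, and for the rises the DMSO points of the tagged line lie to the right of the wild-type ones.

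Counted over all genes, the baseline difference was broad and shallow on one scale and narrower on the other. On the spike-in scale 1124 genes fell and 178 rose. Under TMM 412 fell and 344 rose. The 412 falls and the 178 rises were called on both scales, and no gene was called in opposite directions. The other 712 falls were called on the spike-in scale alone. The total of 1124 falls depended on single libraries: 626 genes fell without MED14_DMSO A, 678 without MED14_DMSO C and 565 without WT_DMSO B. Groups did not overlap for 3632 lower genes (29% of all tested) and 484 higher genes (3.87%) on the spike-in scale.

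The same line differed from wild type in wells that shared no library with the baseline. In MED14_dTAG_7 against WT_dTAG_7, 9646 genes fell (77.1%) and 206 rose (1.65%) on the spike-in scale, and 2508 fell (19.3%) and 2263 rose (17.4%) under TMM. Of the 412 genes with a TMM fall at baseline, 307 (74.5%) were also called lower in the dTAG7 wells and 1 higher, with a median of −0.92. Of the 344 TMM rises, 184 (53.5%) were called higher there and 22 lower, with a median of 0.59. The median over all genes was 0.01. MED14 was degraded in these wells, so they hold the line difference and the loss of MED14 together. Against the mean of the 8 other tagged lines, 2600 genes fell (20.8%) and 213 rose (1.7%) on the spike-in scale, and 526 fell (4.05%) and 590 rose (4.55%) under TMM.

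Genes of a stretch of chromosome 11 were lower together. The tested genes of the autosomes and chromosome X were put in genome order and cut into 487 windows of 25 neighbouring genes. Fewer than 25 genes left over at the end of a chromosome were in no window. In 481 of them the median TMM value lay between −0.27 and 0.32. The other 6 were consecutive windows on the long arm of chromosome 11, from 66664998 to 93730358 (hg38), with medians from −1.03 to −0.72. Their 150 genes had a median of −0.90 (quartiles −1.09 and −0.70) under TMM and −1.10 on the spike-in scale. Of these, 107 (71.3%) fell under TMM and none rose, against 2.47% of the 12365 other genes. They made up 26% of all TMM falls. The windows were singled out after their values were seen, so these counts describe the block and test nothing.

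The edges of the block were read from single genes, which were picked after their values were seen. At the centromeric side BRMS1 (−0.04) and B4GAT1 (−0.29) did not pass the test under TMM, while SLC29A2 (−0.89, starting at 66362521) and MRPL11 (−0.85) fell. At the other side CTSC (−0.72) and CHORDC1 (−0.90, ending at 90223364) fell, while SLC36A4 (−0.12, starting at 93144171) and SMCO4 (−0.12) did not pass the test. Windows are cut by gene number, so the last of them reaches past this edge and the first begins inside the lower stretch. RPS3, a protein of the small ribosomal subunit, dropped from 10900, 10700 and 11100 CPM to 4640, 5040 and 4710 CPM. GAB2, an adaptor that BCR-ABL uses for signaling, dropped from 296, 307 and 265 CPM to 152, 157 and 131 CPM. DHCR7, the last enzyme of cholesterol synthesis, dropped from 87.9, 82.3 and 79.5 CPM to 43.7, 51.1 and 46.9 CPM.

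**Figure D2:**
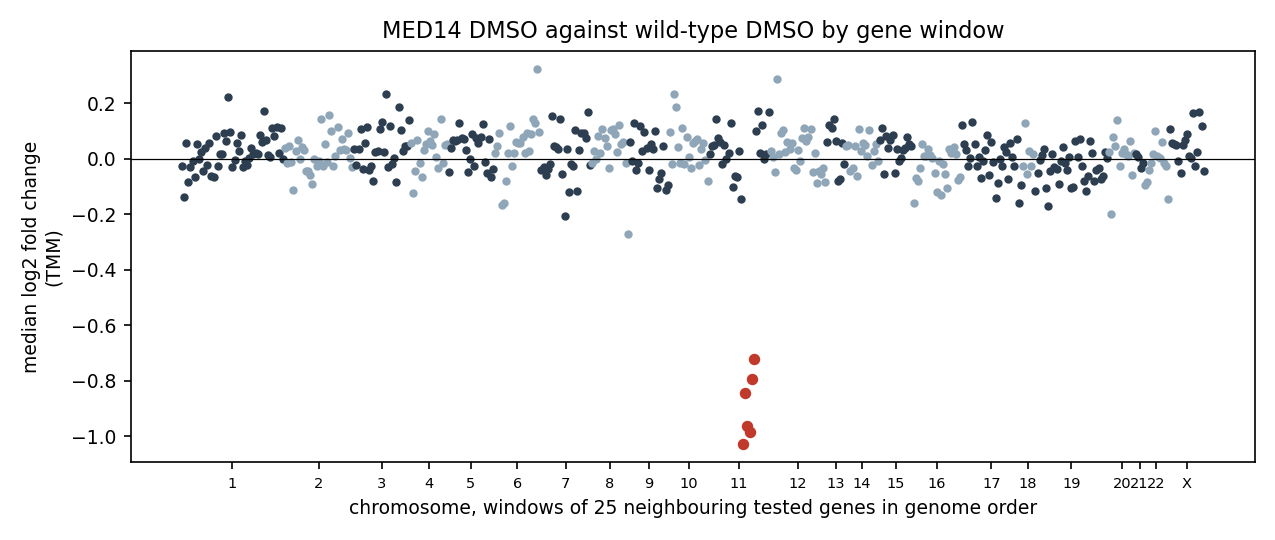
Median TMM log2 fold change (vertical axis) of MED14_DMSO against WT_DMSO in windows of 25 neighbouring tested genes, placed in genome order with chromosome names on the horizontal axis. The 6 red windows on chromosome 11 lie between −1.03 and −0.72, and the others between −0.27 and 0.32.

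The block was present in every library of the MED14 line and in no DMSO library of another line. For the 118 of its genes with a mean of at least 5 CPM, the median difference from the WT_DMSO mean was −0.86, −0.89 and −0.92 in MED14_DMSO and −0.96, −0.84 and −0.76 in MED14_dTAG_7 (TMM). It was −0.05, −0.01 and −0.01 in WT_dTAG_7 and between −0.04 and 0.09 in the 24 DMSO libraries of the other tagged lines. The 499 other chromosome 11 genes had a median of 0.02 in each MED14_DMSO library. In the dTAG7 wells, which the choice of windows did not use, 102 of the 150 genes were called lower and 3 higher under TMM, with a median of −0.84. No DNA measurement of the line was used here, and what lies behind the block was not tested.

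**Figure D3:**
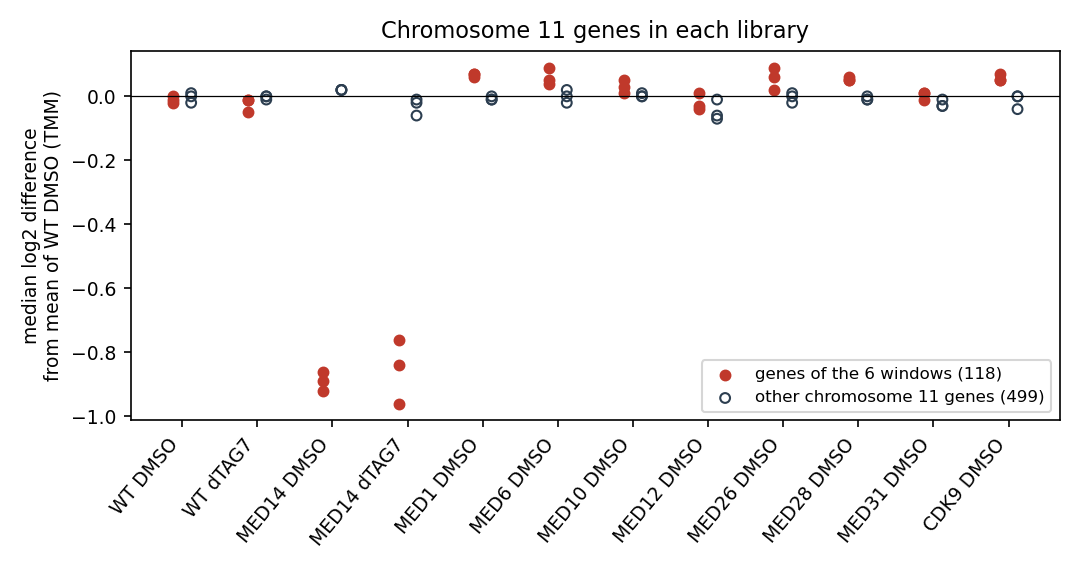
Median log2 difference from the mean of the 3 WT_DMSO libraries (vertical axis, TMM) in each library, for 118 genes of the 6 chromosome 11 windows (red) and 499 other genes of that chromosome (open circles), by group on the horizontal axis. The 6 libraries of the MED14 line lie between −0.96 and −0.76 for the red points, and the DMSO libraries of the other tagged lines between −0.04 and 0.09.

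Genes of red cells and of mast cells and basophils were higher in the tagged line in part. Of 13 erythroid marker genes tested, 5 rose and 2 fell on both scales. On the spike-in scale 1.42% of all genes rose and 8.98% fell, and under TMM 2.65% rose and 3.18% fell. The risers were HBD and HBE1 (the delta and epsilon globins), ALAS2 (the erythroid enzyme that starts heme synthesis), ANK1 (ankyrin of the red cell membrane) and RHAG (the Rh-associated glycoprotein). RHAG was 23, 25.9 and 30.9 CPM in MED14_DMSO and 7.11, 8.17 and 8.84 CPM in WT_DMSO (1.72 ± 0.31, adjusted p = 3.76e-05). HBD was 10.9, 16.2 and 14.1 CPM against 0.418, 0.584 and 2.41 CPM. HBE1 was 3.77, 6.23 and 4.69 CPM against 0.837, 0.584 and 1.61 CPM, and globin genes are similar enough for reads to be split between them. ALAS2 had 22 counts against 2, a ratio of 8.61 (2.12 to 75.6), and its call was lost without MED14_DMSO C, WT_DMSO B or WT_DMSO C (adjusted p up to 0.142).

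Members of the list went in both directions. GYPC, glycophorin C of the red cell membrane, fell from 168, 162 and 146 CPM to 36.5, 44.9 and 39.9 CPM (−1.97 ± 0.12). HBQ1, theta globin, fell by 0.89. The summed level of the 13 genes was 410 to 461 CPM in MED14_DMSO and 513 to 579 CPM in WT_DMSO, so the total was lower while 5 members were higher. GYPC gave a mean of 159 CPM to the wild-type sum and 40.4 CPM to that of the tagged line. The list median was 0.82 on the spike-in scale and 1.00 under TMM, beside −0.19 and 0.02 over all genes. The other 15 of the 28 listed genes were not analysed here. GATA1, the erythroid master regulator, stood at 1.20 ± 0.49 (adjusted p = 0.103). GFI1B, a repressor needed for red cell and platelet development, rose from 2.93, 1.17 and 4.02 CPM to 20, 19 and 16.4 CPM (2.67 ± 0.40).

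Of 11 mast cell and basophil markers tested, 5 rose and none fell on the spike-in scale, and 6 rose under TMM. The shares of all genes that rose were 1.42% and 2.65%. SRGN, serglycin of the secretory granules, was 141, 144 and 146 CPM in MED14_DMSO and 88.7, 82.3 and 73.9 CPM in WT_DMSO (0.82 ± 0.15, adjusted p = 5.72e-05). MS4A2, the beta chain of the high-affinity IgE receptor, was 15.8, 17.5 and 15.2 CPM against 7.11, 4.67 and 6.03 CPM. HDC, which makes histamine, was 30.9, 28.4 and 30.1 CPM against 18.8, 19.8 and 11.7 CPM, and was not called without WT_DMSO C (adjusted p = 0.0915). HPGDS, the hematopoietic prostaglandin D synthase, rose by 1.45 with an adjusted p of 0.0442, a call lost without any of the 6 libraries (up to 0.169). GATA2, the factor that drives this lineage, rose by 0.44 (adjusted p = 0.0458, up to 0.209 when MED14_DMSO A, B or C or WT_DMSO A or C was left out) and by 0.64 under TMM (1.65e-05). Against the other tagged lines GATA2 stood at 0.01. The summed level of the 11 genes was 1138 to 1220 CPM against 983 to 1219 CPM on the spike-in scale, so the sums overlapped there. Under TMM the sums were 942 to 1020 CPM against 750 to 830 CPM, without overlap. The list median was 0.58 on the spike-in scale and 0.78 under TMM.

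GATA factors bind the word GATA with flanking bases, and the promoters of the raised markers were read for it. RefSeq (GRCh38.p14) gave a promoter for 7 of the 10 erythroid and mast cell markers that rose on both scales. The words AGATAA and TGATAA, searched on both strands from 250 bases before to 50 bases after the start, were present in 5 of the 7 (71.4%). They were present in 2 of the 9 promoters matched for the 14 other tested markers of these lists (22.2%), in 7.74% of the promoters of tested genes (706 of 9124) and in 16.6% of all 27305 promoters in the table. Among genes that rose past 2 (log2) on both scales the share was 14.8%, and among the promoters matched for the 10 largest rises 25%. The promoters of the raised markers were also poor in the dinucleotide CG, with a median of 3 per promoter against 18 for the other markers and 27 for tested genes. The part of base composition in the share of matches was not tested. The matches stood 78 bases before the start of HBD, 127 before ALAS2, 31 before RHAG, 54 before MS4A2, and 111 before HPGDS for the first of 2. The promoters of HDC and GATA2 held none. A match is a description of these letters and not evidence of binding. The 250 bases before the start are shown for the 5 promoters with a match, with the matches in capitals.
HBD (chr11:5234484-5234733, minus strand): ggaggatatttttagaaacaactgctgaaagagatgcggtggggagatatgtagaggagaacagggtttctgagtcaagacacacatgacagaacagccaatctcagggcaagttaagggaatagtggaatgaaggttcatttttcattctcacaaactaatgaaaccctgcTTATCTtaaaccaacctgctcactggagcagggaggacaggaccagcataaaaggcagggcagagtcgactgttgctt
ALAS2 (chrX:55030978-55031227, minus strand): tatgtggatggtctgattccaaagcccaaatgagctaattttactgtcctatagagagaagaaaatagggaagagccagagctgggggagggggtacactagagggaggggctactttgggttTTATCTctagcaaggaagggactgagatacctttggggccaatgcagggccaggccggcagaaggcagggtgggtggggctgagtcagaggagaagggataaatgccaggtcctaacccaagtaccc
RHAG (chr6:49636840-49637089, minus strand): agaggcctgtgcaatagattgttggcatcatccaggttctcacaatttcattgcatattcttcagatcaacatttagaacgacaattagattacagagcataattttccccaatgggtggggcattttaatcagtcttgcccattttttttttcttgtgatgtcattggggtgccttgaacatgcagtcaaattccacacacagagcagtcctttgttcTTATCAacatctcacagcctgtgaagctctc
MS4A2 (chr11:60088414-60088663, plus strand): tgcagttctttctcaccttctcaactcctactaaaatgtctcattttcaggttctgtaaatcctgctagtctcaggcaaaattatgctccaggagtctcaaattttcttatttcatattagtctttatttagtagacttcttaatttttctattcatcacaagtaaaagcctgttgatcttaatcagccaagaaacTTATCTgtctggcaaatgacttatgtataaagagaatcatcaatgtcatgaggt
HPGDS (chr4:94342837-94343086, minus strand): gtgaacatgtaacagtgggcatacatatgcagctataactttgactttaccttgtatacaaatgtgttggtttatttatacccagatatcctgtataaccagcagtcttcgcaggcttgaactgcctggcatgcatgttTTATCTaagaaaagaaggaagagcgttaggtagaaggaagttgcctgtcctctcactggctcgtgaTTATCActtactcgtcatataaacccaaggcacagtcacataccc

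**Figure D4:**
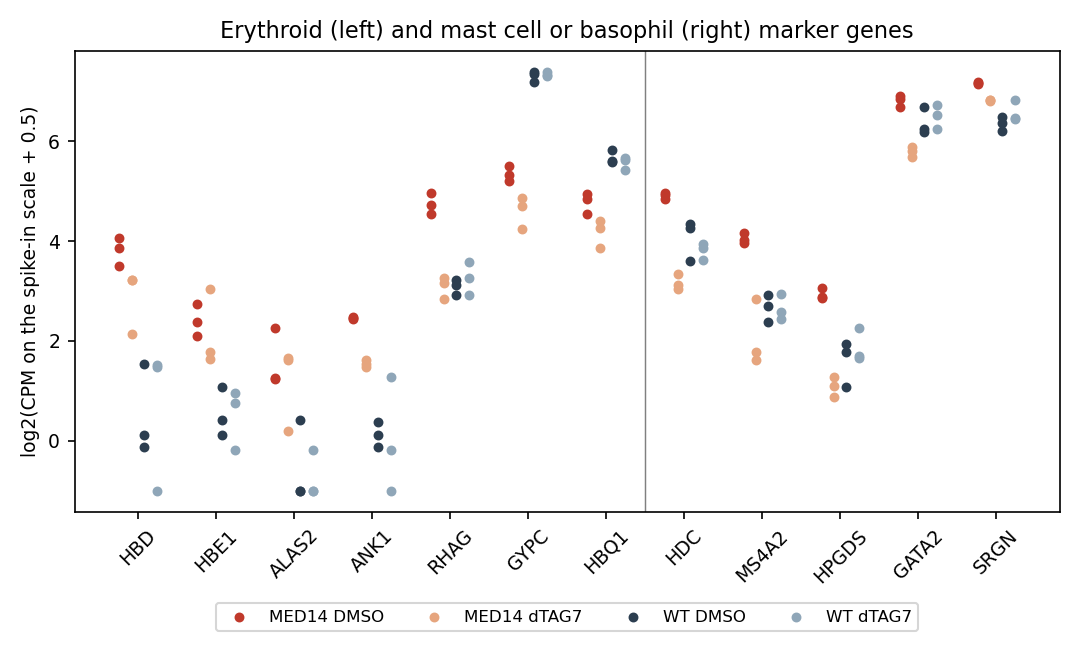
Levels of 7 erythroid and 5 mast cell or basophil marker genes that were called on both scales, as log2(CPM on the spike-in scale + 0.5) on the vertical axis, with 1 point per library and 4 colours for line and treatment. The DMSO points of the tagged line lie above the wild-type DMSO points for 10 of the 12 genes and below them for GYPC and HBQ1, with the GATA2 ranges meeting at 102 CPM.

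A few other blood lineage genes were called, where 8.98% of all genes fell and 1.42% rose on the spike-in scale. MPO, the neutrophil peroxidase, had 3 counts in MED14_DMSO and 28 in WT_DMSO, a ratio of 11.9 (3.68 to 61.3). EBF1, a B cell factor, fell from 17.2, 23.9 and 16.1 CPM to 3.77, 3.12 and 5.47 CPM (−2.19 ± 0.28). Of 10 stem and progenitor markers tested 2 fell (CD44 and AVP) and 1 rose (CD34) on both scales. CD44, a hyaluronan receptor, was 114, 125 and 133 CPM against 177, 181 and 167 CPM (−0.50, TMM −0.29, adjusted p = 0.00163 and 0.0446). CD34 was 227, 258 and 279 CPM against 195, 203 and 178 CPM (0.41 on the spike-in scale and 0.61 under TMM, adjusted p = 0.024 and 1.2e-06). On the spike-in scale its call was lost without MED14_DMSO B or C or WT_DMSO A or C (up to 0.135). Of 4 megakaryocyte and platelet markers tested ANGPT1 fell (−0.55), and of 6 granulocyte and monocyte markers MPO and CD33 fell on the spike-in scale (CD33 by 0.68, not called without MED14_DMSO C or WT_DMSO B, adjusted p up to 0.113). AVP, a progenitor marker in single-cell atlases, had 0 counts in the tagged line and 12 in wild type, at least 5.11-fold lower at a floor of 3 counts over the group. Against the 8 other tagged lines CD44 (−0.14) and CD34 (0.10) were not called on the spike-in scale, and MPO had no usable value (SE 167.62). EBF1, ANGPT1, AVP and CD33 were called lower there. Under TMM CD44 stood at 0.09, not called, and CD34 at 0.34, called higher.

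Among 34 hematopoietic transcription factors tested, 6 fell and 2 rose on the spike-in scale, and 2 fell and 3 rose under TMM. SPI1, the myeloid factor PU.1, was 10.5, 21.5 and 17.6 CPM against 28, 36.2 and 30.1 CPM (−0.90, TMM −0.70), and lost its call without MED14_DMSO A (adjusted p = 0.0676). SATB1, a chromatin organizer, was 191, 194 and 199 CPM against 264, 287 and 284 CPM (−0.52, TMM −0.31). MYB, a transcription factor of blood progenitors, stood at −0.45 on the spike-in scale (adjusted p = 0.00232) and −0.25 under TMM (adjusted p = 0.0908). Of 32 MYC targets and ribosome biogenesis genes 5 fell on the spike-in scale and 0 under TMM, with medians of −0.25 and −0.04. Of 30 cytosolic ribosomal proteins 5 fell on the spike-in scale, and under TMM RPS3 of the chromosome 11 block did so alone. Over all genes 8.98% fell and 1.42% rose on the spike-in scale, and 3.18% fell and 2.65% rose under TMM.

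Some signaling and stress genes rose. Of 21 genes of BCR-ABL and STAT5 signaling 3 rose on the spike-in scale (6 under TMM) and GAB2 fell. Among all genes 1.42% rose on the spike-in scale and 2.65% under TMM. The risers were PIM2, a survival kinase (558, 541 and 534 CPM against 306, 304 and 373 CPM), SOCS2, a feedback inhibitor (132, 159 and 143 CPM against 82, 101 and 89.2 CPM), and CCND2, cyclin D2 (0.58). PIM2, SOCS2 and KLF10 were also the 3 risers among 25 immediate early genes, of which 6 rose under TMM. CCND2 was no longer called without WT_DMSO A or C (up to 0.0818), and KLF10 (0.91) without any of the 6 libraries (up to 0.133).

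Of 22 p53 targets 4 rose on either scale, and 1 fell on the spike-in scale. For this list and the next, the shares of all genes that rose were 1.42% (spike-in) and 2.65% (TMM). GDF15, a stress cytokine, was 10.9, 8.42 and 12.1 CPM against 0.837, 4.09 and 1.21 CPM. CDKN1A, the cell cycle inhibitor p21, was 32, 31.5 and 28.9 CPM against 18.4, 21.6 and 18.1 CPM (0.68, adjusted p = 0.0244). Its call was not followed with libraries left out. TP53I3 fell by 0.83 on the spike-in scale and stood at −0.63 under TMM (adjusted p = 0.0505). Of 21 interferon response and antigen presentation genes 4 rose (IFITM3, IFIT2, IFI44 and IRF1) and STAT2 fell on the spike-in scale, and 5 rose under TMM. IRF1 was 115, 101 and 102 CPM against 80.3, 74.1 and 64.7 CPM. The median of this list was 0.10 on the spike-in scale, beside −0.19 over all genes. IFIT2 and IFI44 were called by a narrow margin, and leaving out single libraries of either group raised their adjusted p to 0.0873 and 0.128. STAT2 lost its call without MED14_DMSO B or C or WT_DMSO B (up to 0.0594).

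The genes that fell most when MED14 was degraded are set beside their baseline values. The dTAG7 effect within the line, MED14_dTAG_7 against MED14_DMSO, had 7918 falls (63.3%) and 213 rises (1.7%) on the spike-in scale. It shares the MED14_DMSO libraries with the baseline, so values stand side by side without a test of likeness. The 10 largest dTAG7 falls were NOG, MYC, AL034397.3, TNFRSF8, KAZN, TTYH2, PLD6, TM4SF1, HSPC324 and CD3EAP, from −4.73 to −3.12. At baseline 9 of the 10 were not called, from −0.55 to 0.52, and TM4SF1 was higher (4.39). Over all genes 10.4% were called at baseline on this scale. Choosing falls from MED14_DMSO favours genes that are high in those libraries, so these baseline values cannot show whether the patterns match.

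MYC, the growth-driving oncogene, was 69.3, 94.5 and 97.7 CPM in MED14_DMSO and 92.1, 164 and 131 CPM in WT_DMSO. Its ranges overlapped and the baseline value was −0.55 ± 0.27 (adjusted p = 0.191), beside −4.19 with dTAG7. NOG, a BMP antagonist, was 10.5, 9.98 and 11.7 CPM against 11.3, 11.7 and 11.2 CPM at baseline, and with dTAG7 had 3 counts against 90, a ratio of 29.8 (9.88 to 147). TNFRSF8, the receptor CD30, was 24.9, 29 and 30.9 CPM against 20.9, 21.6 and 24.9 CPM (0.32, adjusted p = 0.334), beside −3.54 with dTAG7. MYB stood at −0.45 beside −2.91, BCL11A at −0.50 beside −2.17, and SATB1 at −0.52 beside −1.55. AL034397.3 and HSPC324 are antisense genes, and counting by strand is not given in the sources used here.

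HEXIM1 and POLR2A, which rose with dTAG7 in the line, were not called at baseline. HEXIM1 stood at −0.11 at baseline beside 1.40 with dTAG7, and POLR2A at 0.05 beside 0.93. In the other direction, several of the largest baseline falls were at too few counts for a further fall to be seen. TLR2 had 2 counts in MED14_DMSO and 7 in MED14_dTAG_7, and RTL8C 2 and 4. Genes higher at baseline had varied dTAG7 values within the line, from −3.24 for TM4SF1 and −2.10 for IL2RA to −0.73 for ETS1, −0.45 for ALAS2 and 1.04 for TP53INP1, beside a median of −0.69 over all genes. MED14_DMSO enters both comparisons with opposite sign, so nothing is read from these values.

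**Figure D5:**
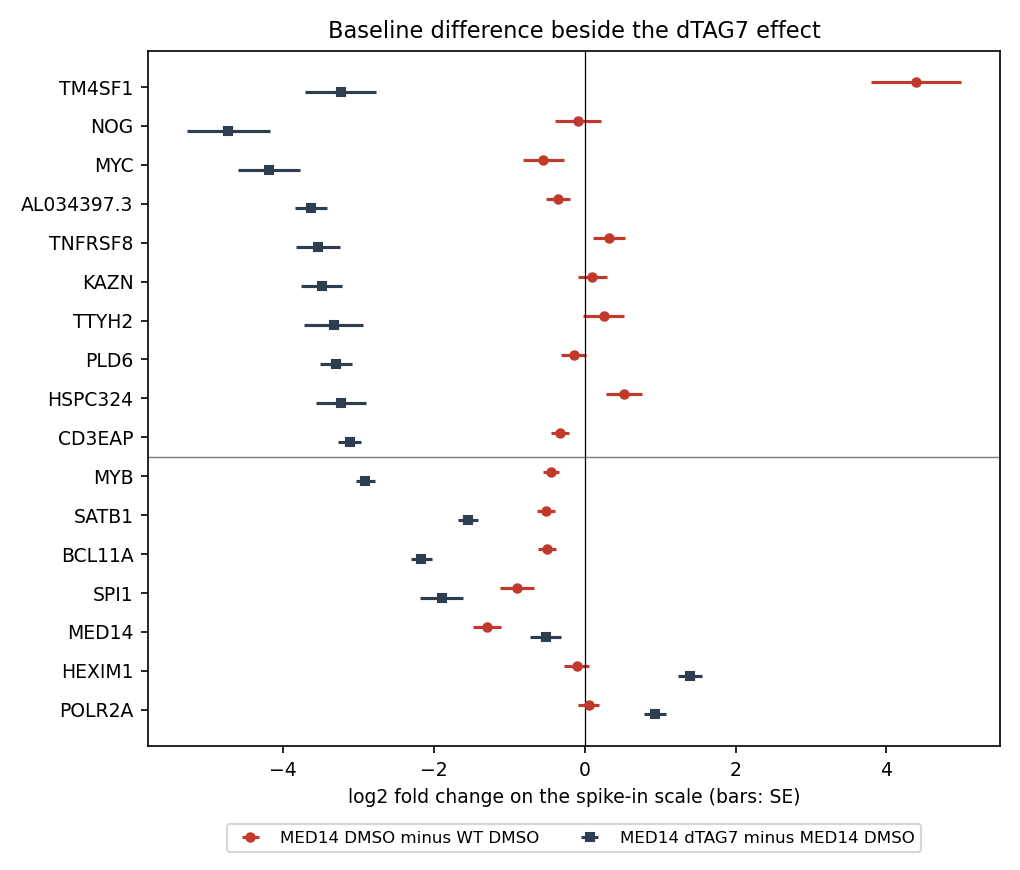
Log2 fold change on the spike-in scale (horizontal axis, bars are SE) at baseline (red circles, MED14_DMSO minus WT_DMSO) and with dTAG7 in the MED14 line (dark squares), for the 10 largest dTAG7 falls above the line and 7 regulators below it. The 10 squares lie from −4.73 to −3.12, whereas the circles of the same genes lie from −0.55 to 0.52 apart from TM4SF1 at 4.39.

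A list of degradation targets chosen without MED14 libraries was read at baseline. MED10 is a subunit of the middle module, and dTAG7 in the MED10 line lowered 2383 genes (19%) and raised 339 (2.71%) on the spike-in scale, and lowered 1284 (9.9%) and raised 1041 (8.02%) under TMM. Of the 1284 TMM falls, 60 (4.67%) were lower in MED14_DMSO than in WT_DMSO and 38 (2.96%) were higher. Over all genes these shares were 3.18% and 2.65%. The median baseline value of the list was −0.01 (quartiles −0.13 and 0.10), beside 0.02 (−0.16 and 0.18) over all genes. On the spike-in scale 333 of 2383 (14%) were lower and 24 (1.01%) higher, with a median of −0.21 beside −0.19.

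The small surplus of lower genes in the list had its own context. Of the TMM list, 1280 members were among the 12515 genes tested on the spike-in scale. They had a median of 78.5 CPM against 32.2 CPM over those 12515 genes. Their median SE, taken from the spike-in scale, was smaller at 0.15 against 0.20. Changes of at least 1 log2 unit downward were seen in 2.5% of these members and 2.88% of these genes under TMM, and upward in 0.469% and 2.46%. Without the chromosome 11 windows, 46 of 1265 members (3.64%) were lower against 2.47% of all genes, and 38 (3%) were higher against 2.77%. Whether the expression level accounts for the surplus was not tested. The 60 lower members were 14.6% of the 412 baseline falls, and the list held 9.9% of all genes. Other lists of falls with dTAG7 were read the same way under TMM. The MED6 line's 472 genes held 36 lower (7.63%) and 14 higher (2.97%) at baseline, and the MED31 line's 394 held 29 (7.36%) and 18 (4.57%). The MED26 line's 182 genes held 12 lower (6.59%) and 2 higher (1.1%). The MED28 line's 565 held 28 of each (4.96%), and the MED12 line's 728 held fewer lower (22, 3.02%) than higher (36, 4.95%). Without the chromosome 11 windows the lower shares were, in that order, 6.25%, 6.19%, 5.03%, 4.29% and 2.23%, against 2.47% of all genes. On the spike-in scale the lists held 12.6%, 26.3%, 17.2%, 14.7% and 12.2% lower, against 8.98% of all genes.

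Named members show both directions. HGF, hepatocyte growth factor, was 5.27, 4.36 and 5.86 CPM in MED14_DMSO and 41.4, 51.4 and 30.1 CPM in WT_DMSO (−2.97), beside −2.0 with dTAG7 in the MED10 line. TEX15, a germ cell gene, was 13.6, 12.5 and 8.99 CPM against 69.5, 68.9 and 64.3 CPM (−2.52), beside −0.71. JPH1, which tethers the endoplasmic reticulum to the plasma membrane, stood at −2.42 beside −0.85. Of the opposite kind, SUCNR1, the succinate receptor, was 96.8, 126 and 129 CPM against 54, 70 and 52.2 CPM (1.01), beside −0.90. IL6R, the interleukin 6 receptor, was 61.8, 77 and 74.3 CPM against 42.7, 39.7 and 41.8 CPM (0.78), beside −0.92. These genes were picked after their values were seen.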

How the data were processed

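Gene expression was measured as 3' mRNA ends in KBM7 cells. The table that the authors deposited holds counts of reads for each gene and spike-in. The submitters' processing notes name the build hg38 and the tools bedtools 2.26.0, HTSeq 0.6.0 and STAR 2.5.2b. The loess-normalized signal table that the authors deposited served in 1 alternative, as log2(value + 1). The deposited count table held 13331 genes, each with at least 70 counts in all and above 0 in at least 20 of 66 libraries, plus 37 ERCC and 7 SIRV spike-ins. Genes below these counts were not analysed here. Gene names and positions came from GENCODE, and 34 genes had no name. Library totals over the series ran from 439261 to 4337368 counts on genes and from 10950 to 72684 on spike-ins, and counting intervals cover counting error only.

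Counts were fitted with edgeR 4.0.16 (R 4.3.3) as 22 group means over 66 libraries, which left 44 residual degrees of freedom, with spike-in totals as library sizes and filterByExpr. The quasi-likelihood test was used with Benjamini-Hochberg adjusted p under 0.05 over all genes tested. TMM is given beside it. Changed calls under median-of-ratios, ERCC or SIRV alone, other filters, DESeq2 1.42.0, limma 3.58.1, a replicate block and left-out libraries are in the closing section. Named genes were the 10 largest falls and rises called on both scales that averaged 5 CPM or more over the 6 libraries without overlap of the groups, up to 3 called members per list and direction, the 10 largest dTAG7 falls, MYC, MYB, GATA1, GATA2, HEXIM1, POLR2A and genes within 1 Mb of MED14. A few more called list members and MED10-list genes were named after their values were seen. The members and lists were chosen with earlier results of these data known. No library of the 6 was near-identical to another: chi-square per degree of freedom between replicates ran from 1.64 to 1.83 in MED14_DMSO and from 2.37 to 2.97 in WT_DMSO.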

Additional observations from a re-analysis of the deposited data

Results flagged for a closer look

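For 3 of the 10 largest baseline rises (TM4SF1, IL2RA and SCN9A) the difference between the MED14 line and wild type was smaller in the dTAG7 wells than in the DMSO wells, by a test of that difference (edgeR, adjusted over all genes, 3 libraries in each of 4 groups). The change in the line difference was −3.78 for TM4SF1 (adjusted p = 0.0105), −1.76 for IL2RA (0.000105) and −1.10 for SCN9A (0.0318) on the spike-in scale, where the median over all genes was −0.787 and 7149 of 12515 genes (57.1%) were called lower by the same test. The 3 genes were chosen for a large DMSO difference, which this test subtracts, so the values are a description and support nothing. Under TMM none of the 3 passed the test, at −3.01 (adjusted p = 0.101) for TM4SF1, −0.98 (0.0566) for IL2RA and −0.31 (0.685) for SCN9A. No explanation was tested.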

How the results depend on the processing

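MED14 mRNA stayed lower under every alternative tried, from −1.39 to −1.10 (log2), and the endogenous to spike-in ratio from −0.24 to −0.14. Counts of genes depended on the scaling. With TMM and with median-of-ratios size factors the baseline falls numbered 412 and 438 in place of 1124, and the rises 344 and 322 in place of 178. In the same order the falls against the 8 other tagged lines were 526 and 563 in place of 2600 and the rises 590 and 500 in place of 213. In the dTAG7 wells the falls were 2508 and 2369 in place of 9646 and the rises 2263 and 2474 in place of 206, and 113 rose with a minimum mean of 5 CPM. Lower members of the MED10 list numbered 60 and 64 in place of 333, 173 with limma on loess values, and 599 with only the libraries of each comparison. With DMSO and dTAG7 libraries of wild type together, 2633 genes fell at baseline and 818 list members were lower. Leaving out 1 library gave 565 to 1097 baseline falls, 123 to 144 rises, and 148 to 342 lower list members. It gave 1096 to 1926 falls and 154 to 164 rises against the other tagged lines, and 8993 to 9520 falls and 165 to 203 rises in the dTAG7 wells.

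Under TMM, libraries of MED14_DMSO and WT_DMSO with the same letter did not deviate together (r = 0.05, 0.02 and −0.02 for A, B and C). TMM takes out a shift in total RNA, so these r cannot show whether letters share such a shift. Nothing in the labels ties the letters to a shared day. With the libraries of each comparison only, 1389 genes fell at baseline without a replicate block and 1978 with it. Lower members of the MED10 list then numbered 599 without the block and 883 with it. The median baseline value of that list stayed within −0.04 to −0.01 of the median of all genes under every alternative. After the data were seen, the 150 chromosome 11 genes were left out, which gave 1008 falls and 310 lower list members. No gene named by the stated rules reversed its direction while called. Genes named after their values were seen were not followed through the alternatives other than TMM. RHAG, HBE1, SRGN, CDKN1A, IRF1, MED12, HGF, TEX15, SUCNR1 and IL6R are among them. Fits that leave out a library keep the other groups' spread.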

Other observations

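Other tagged lines also differed from wild type in DMSO, to unequal extents. On the spike-in scale 1320 genes (10.5%) were called in the MED12 line, 1038 (8.29%) in the MED31 line, 243 (1.94%) in the MED28 line, 216 (1.73%) in the CDK9 line and 115 (0.919%) in the MED26 line. The MED1, MED6 and MED10 lines had 51, 51 and 40. The MED14 line, with 1302 (10.4%), was close to the MED12 line in number, but 553 of the MED12 calls and 1124 of the MED14 calls were falls. Under TMM the MED12 line had 1743 calls (13.4%, 741 of them falls), the MED31 line 1209 (9.32%) and the MED14 line 756 (5.83%, 412 of them falls). These comparisons all use the WT_DMSO libraries.

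Cholesterol genes were called in both directions in the MED14 line. Of 17 genes of cholesterol synthesis and uptake tested, 15 were not called on the spike-in scale, where 10.4% of all genes were called. DHCR7 of the chromosome 11 block fell on both scales (−0.81), whereas FDFT1, squalene synthase, rose (429, 453 and 469 CPM against 339, 347 and 362 CPM, 0.37). Under TMM DHCR7 fell and 4 genes of the list rose, where 3.18% of all genes fell and 2.65% rose. The list median under TMM was 0.28, beside 0.02 over all genes. FDFT1 was not called on the spike-in scale without any one of MED14_DMSO A, B or C or WT_DMSO A or B (adjusted p up to 0.118). None of 13 mitochondrially encoded transcripts was called on either scale.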
